A study of Homo sapiens with 20 samples.

Results

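This screen followed guide RNA abundance in HAP1 cells, a human line with a near-haploid karyotype that derives from chronic myelogenous leukaemia, over 14 days of RfxCas13d expression. It comprised 4 of the 20 libraries of the study. These were 2 libraries harvested at day 0 and 2 harvested at day 14, numbered 1 and 2 on each day. The protocol states separate infection replicates, and no label says outright that a number stands for the same infection on both days. All 4 carry the same genotype label, RfxCas13d, and the same treatment label, doxycycline induction. The cells expressed a nuclear form of the nuclease under doxycycline control, had been transduced with the lentiviral guide library at a low multiplicity of infection, and had been selected with puromycin before induction. Doxycycline was added together with puromycin and blasticidin. No library of these 4 comes from cells without the nuclease or kept uninduced to day 14, so induction, culture time and drug exposure cannot be told apart. The non-targeting guides were in the same cultures and give only a background for the targeting guides. The guide cassettes were then amplified from genomic DNA and sequenced. The table held 17690 guides after rows without values were left out and repeated guide names were averaged, of which 16691 were marked as targeting and 999 as non-targeting. HEK293FT cells, an embryonic kidney line with the same RfxCas13d and doxycycline labels and the same guide library, serve as the comparison, with 2 libraries at day 0 and 2 at day 14. The identity of the cells could not be checked, because the libraries contain guide cassettes only.

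Cas13d is a CRISPR nuclease that a short guide RNA directs to a complementary transcript, which it then cuts. It leaves the DNA intact, so the guide cassette stays in the genome and serves as a barcode of the cell that carries it. In a pooled growth screen a guide whose carriers divide more slowly or die becomes rarer between the harvests, and a guide whose carriers outgrow the culture becomes more abundant. Cas13d is also known to cut bystander RNA once a target has activated it. Non-targeting guides match no intended transcript and give the background of such a screen.

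The deposited values are normalised signals with no whole-number step, and the sequencing depth of the libraries is therefore unknown here. The 4 libraries were alike in scale, with summed signals from 2823570 to 2940844 and medians from 111 to 116 over all table rows with values. At day 0 the lowest guide lay at 16.1 in replicate 1 and 17.6 in replicate 2. At day 14 the signal reached down to 0.939 and 1.097, and 238 and 216 table rows lay below 10, where day 0 had none. All of these low values belonged to targeting guides, since the lowest non-targeting guide at day 14 lay at 91.1 in replicate 1 and 88.7 in replicate 2. Replicates of day 0 were within 1.5-fold of each other for 94.4% of targeting guides, and those of day 14 for 88.1%. For non-targeting guides the corresponding shares were 94.2% and 95.9%, so replicates were less alike at day 14 for targeting guides and not for non-targeting guides.

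Day 14 was compared with day 0 for each guide by limma on log2 signal, and a guide was said to have fallen or risen when its Benjamini-Hochberg adjusted p over all guides was under 0.05. By this rule 6.52% of all guides fell and 0.854% rose. Among targeting guides 1150 fell and 147 rose, and among non-targeting guides 4 fell and 4 rose. Most targeting guides changed little: the middle of the targeting guides, from the lower to the upper quartile, lay between -0.16 and 0.19 on the log2 scale, close to the range of -0.15 to 0.15 of the non-targeting guides. In the tail 1073 targeting guides lay below -1, 318 below -3, 148 below -4 and 55 below -5, while the lowest non-targeting guide lay at -0.75. On the upper side only 47 targeting guides exceeded 1, and the highest non-targeting guide lay at 0.87.

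The guide with the lowest log2 fold change, gID_04020, had signals, scaled on the non-targeting guides as all signals of single guides below are, of 194 and 237 in the day 0 libraries and of 0.992 and 1.102 in the day 14 libraries. Both day 14 values lay near the lowest of their library, and the groups did not overlap. Its log2 fold change was -7.68 ± 0.97 (SE, n = 2 per day), and limma gave an adjusted p of 0.00101. Without day 0 replicate 1 the adjusted p rose to 0.0837, and with guides below a mean signal of 50 left out before the fit it was 0.0781, while the change lay between -7.83 and -7.53 with any 1 library left out. The size of the change rests on day 14 signals near 1: adding 1 to every signal gave -6.72, and adding 10 gave -4.35. Only 9 targeting guides had signals under 2 in both day 14 libraries, and 348 had signals under 20 in both.

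Guides that were lost in 1 pair of libraries were nearly all low in the other pair as well. A pair here is a day 14 library less the same-numbered day 0 library, so the pairs share no library. They may still not be independent, since same-numbered libraries deviated from their day means in opposite directions (r = -0.44 across guides), and whether the normalisation tied them to each other was not tested. Of 529 targeting guides below -2 in the replicate 1 pair, 527 were below 0 and 515 below -1 in the replicate 2 pair, where their median was -3.36. Of 646 chosen below -2 in the replicate 2 pair, 641 were below 0 and 612 below -1 in the replicate 1 pair, where their median was -2.66. At a threshold of -1, of 1091 guides chosen in the replicate 1 pair 884 were below -1 in the replicate 2 pair. Of 1192 chosen at -1 in the replicate 2 pair, 884 were below -1 in the replicate 1 pair. For gains, chosen at a threshold of 1, the shares were smaller than these. Of 217 targeting guides above 1 in the replicate 1 pair 22 were above 1 in the replicate 2 pair, with a median there of 0.20, and of 69 chosen in the replicate 2 pair the same 22 were above 1 in the replicate 1 pair. The 9 non-targeting guides above 1 in the replicate 1 pair had a median of -0.26 in the replicate 2 pair, and 1 of them was above 0 there. The gains depended on which libraries were paired. With replicate numbers crossed between the days, 77 targeting guides were above 1 in day 14 replicate 1 less day 0 replicate 2. In day 14 replicate 2 less day 0 replicate 1 their median was 0.89, with 76 above 0 and 29 above 1. Losses repeated under either pairing, and in the crossed pairs 636 of 641 guides below -2 in the former were below -1 in the latter. Of 1160 guides below -1 in the former, 935 were below -1 in the latter. Crossed pairs reuse the same libraries. Opposite deviations of same-numbered libraries partly cancel in them, so their closer agreement is no separate repeat.

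The guide numbers carry the HAP1 outcome. The table rows of the 16708 targeting entries divide into 4177 consecutive sets of 4, and in all 4177 sets the mean of the same-numbered day 14 to day 0 ratios fell strictly from the first row to the last. The match was complete for this measure and incomplete for close relatives of it. With day 14 and day 0 replicates crossed the ratios fell fully in 3243 sets, with the ratio of the day means in 3351, and with the mean log2 fold change in 3293. When the borders were moved by 1 row, 353 of 4176 sets were ordered in this way. Non-targeting guides, taken in consecutive sets of 4 by the same rule, were ordered in 7 of 249 sets, and the HEK293FT table was ordered in 197 of 4058 targeting sets. A guide's place in its set thus restates its rank in HAP1, and the place medians of 0.26, 0.08, -0.04 and -0.16 on the log2 scale are a description of that numbering. Whether a set stands for a target is not stated in the table, and how the sets were formed is not given in the sources used here.

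The order of guides within a set can be read in HEK293FT, whose table the numbering did not follow. Sets were tested as described in the next paragraph, and those lower in HAP1 with all 4 guides measured in HEK293FT numbered 489. In them the median HEK293FT change by place was -0.09, -0.17, -0.24 and -0.37, against -0.23, -0.72, -1.34 and -2.18 in HAP1. The guide that ranked last in HAP1 was below the guide that ranked first in HEK293FT in 359 of these 489 sets (73.4%), and it was the lowest of the 4 in 234 (47.9%). In the 97 such sets that also fell in HEK293FT the medians were -0.34, -0.50, -1.16 and -1.30, with the last guide below the first in 87 sets. These 97 sets were chosen by their fall in HEK293FT, where their medians and order are also read. That choice favours larger changes there. In the 3441 sets without a call in HAP1 the last guide was below the first in 1741 (50.6%) and was the lowest in 885 (25.7%). The order seen in HAP1 was thus found more often in HEK293FT among lost sets than among uncalled sets. This difference was not tested.

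For the set results, log2 signals were averaged over each run of 4 guide numbers with at least 3 guides present, and limma was run over all 4425 sets, including 250 of non-targeting guides. By the same threshold 11.4% of sets fell and 2.62% rose. Of 4175 targeting sets 503 fell and 116 rose, and of the 250 non-targeting sets 1 was called. The median change of the fallen targeting sets was -1.10 and that of the risen sets 0.41. Because the numbering follows the HAP1 outcome, whether set membership also depends on the outcome was not tested.

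The guides of a fallen set differed in how far they changed. Among the 501 fallen targeting sets with 4 guides, 90 had all 4 guides below -1, 104 had 3, 111 had 2, 118 had 1 and 78 had none. In 377 of the 503 fallen sets all guides lay below 0. The gap between the highest and the lowest guide had a median of 1.71 in fallen sets and of 0.43 in sets without a call. There were 280 sets whose lowest guide lay below -2. In 150 of them (53.6%) the highest guide of the same set stayed above -0.5, and in 88 (31.4%) it lay below -1.

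The targeting guides fell into a common and a more abundant class, which HEK293FT day 0 libraries show without use of the HAP1 data. With a boundary at a mean HEK293FT day 0 signal of 250, chosen after the distribution was seen, 2014 targeting guides belonged to the abundant class and 14558 to the common one. At this boundary the classes followed the sets. Of 4044 sets with all 4 guides measured, 470 held 4 abundant guides, 34 held 3, none held 2, 29 held 1 and 3511 held none. The split was less clean at other boundaries. With the boundary at 200, 489 sets held 4 abundant guides, 15 held 3, 22 held 2, 289 held 1 and 3229 held none. With the boundary at 300, 399 held 4, 97 held 3, 6 held 2, 14 held 1 and 3528 held none. At day 0 in HAP1 the abundant class had median signals of 448 and 463, the common class 103 and 106, and the non-targeting guides 431 and 432. The abundant class thus lay near the level of the non-targeting guides and the common class well below it. The day 0 signal in HAP1 placed 99.4% of 16572 targeting guides on the same side of the boundary. What separates the classes is not stated in the table.

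A larger share of the abundant class was lost, a difference given here by its counts and not tested. Among its guides 385 of 2014 (19.1%) fell, against 759 of 14558 (5.21%) in the common class and 4 of 999 (0.400%) of the non-targeting guides of like signal. Abundant guides are also measured somewhat more tightly, with a median residual SD of 0.165 against 0.177, so the size of the change is given beside the calls. Below -1 lay 14.8% of abundant and 5.28% of common guides. Below -3 lay 5.46% and 1.42%, and below -5 lay 1.54% and 0.165%. In the replicate 1 pair alone 15.3% of abundant and 5.32% of common guides lay below -1, and in the replicate 2 pair 15.3% and 6.02%. With the boundary at 200 the shares of fallen guides were 17.1% and 5.22%, and with the boundary at 300 they were 18.7% and 5.36%. On the upper side 1.44% of abundant and 0.804% of common guides rose.

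The sets differed in the same direction. Of 505 abundant sets 146 (28.9%) fell and of 3669 common sets 357 (9.73%) fell. Once lost, the classes were alike in size, with medians of -1.14 in fallen abundant sets and -1.09 in fallen common sets, and lowest sets of -5.72 and -4.73. Day 14 signals reached down to about 1 in both classes, and common guides started about 2 log2 units lower. Whether the starting level affects the lowest values and the shares below -3 and -5 was not tested. All 4 guides were below -1 in 33 of 504 abundant and 59 of 3658 common sets with 4 guides. Targeting guides were also ranked by HEK293FT day 0 signal and split into 10 groups of near-equal size. The share of fallen guides lay between 3.20% and 6.58% in the lower 8 groups, with no steady rise, and was 8.75% in group 9 and 18.0% in group 10. The median residual SD was 0.218 in group 1 and 0.163 in group 10. The shares of guides below -1, which do not use the residual SD, were 7.24% in group 1, 3.68% in group 8 and 13.6% in group 10.

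The abundant class held most of what was lost in HEK293FT and a minority of what was lost in HAP1. In HEK293FT 2.62% of 4424 sets fell, all of them targeting sets. Of these 116 sets 83 belonged to the abundant class, whereas 146 of the 503 targeting sets that fell in HAP1 did. As shares of each class, 16.4% of abundant and 0.899% of common sets fell in HEK293FT. With the classes drawn from HAP1 day 0 signals instead, which are free of the HEK293FT contrast, the HEK293FT shares were 16.1% and 0.899%. Of the 146 abundant sets lost in HAP1 69 also fell in HEK293FT, and of the 357 common sets 30 did. The median HEK293FT change was -0.36 over the 146 abundant sets and -0.18 over the 357 common sets. Over all 505 abundant sets it was -0.12 and over all 3669 common sets -0.03, so part of the difference belongs to the classes as a whole. In all, 99 sets fell in both lines, which is 19.7% of the HAP1 list and 85.3% of the HEK293FT list. Over all targeting sets 2.78% fell in HEK293FT and 12.05% in HAP1, and of the abundant sets 28.9% fell in HAP1.

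A limma fit over the 8 libraries of both lines tested whether the day effect depended on the line. At the level of guides 696 of 17571 (3.96%) had a lower day effect in HAP1 and 129 (0.734%) a higher one. At the level of sets 7.71% of 4424 sets had a lower day effect in HAP1 and 2.12% a higher one. The lower day effects in HAP1 comprised 96 abundant sets (19.0% of that class) and 244 common sets (6.65%). Of the 357 common sets lost in HAP1 238 had a day effect lower than in HEK293FT by this test, and of the 146 abundant ones 96 had. These sets were chosen by their fall in HAP1, which also enters this test, and that choice favours a lower day effect in HAP1. The counts depended on single libraries. The 341 sets lower in HAP1 became 215 without HEK293FT day 0 replicate 1, 218 without HEK293FT day 0 replicate 2 and 226 without HEK293FT day 14 replicate 2. The 94 sets higher in HAP1 became 52 without HAP1 day 0 replicate 1, 164 without HAP1 day 14 replicate 2, and 26, 37, 42 and 37 without HEK293FT day 0 replicates 1 and 2 and day 14 replicates 1 and 2. With the replicate number as a block, 275 sets were lower and 27 higher in HAP1. The lines were deposited in separate tables, and a difference between lines cannot be told apart from a difference in how those tables were normalised.

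The set with the lowest mean, which begins with gID_11981, belonged to the abundant class and was low at day 14 in all of its guides. Its first guide measured 272 and 410.2 at day 0 and 27.7 and 13.9 at day 14. Its next guide went from 320 and 439 to 13.9 and 1.28, and the one after that from 408 and 477 to 12.7 and 6.91. Its last guide went from 407 and 275 to 1.73 and 5.52. Day 14 lay below day 0 for every guide and library of the set, without overlap. The set mean changed by -5.72 ± 0.27 (SE, n = 2 per day), for which limma gave an adjusted p of 1.68e-08. In HEK293FT the same guides changed by -1.83, -3.33, -3.38 and -3.59, so the guide least affected in HAP1 was the least affected there too.

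The 5 lowest sets, at -5.72, -5.60, -5.53, -5.31 and -4.89, all belonged to the abundant class. They were not alike inside. The set at -5.53 is that of gID_04020, whose other members show how uneven a set could be. Its first guide had signals of 527 and 522 at day 0 and of 429 and 381 at day 14, a change of -0.38, and in HEK293FT it changed by 0.02. The remaining members changed by -6.83, -7.25 and -7.68 in HAP1 and by -2.62, -3.44 and -4.08 in HEK293FT. In the set at -5.60 the second guide went from 659 and 619 to 43.7 and 18.6 in HAP1, a change of -4.48, while in HEK293FT it had 735 and 760.3 at day 0 and 663 and 580 at day 14, a change of -0.27. Its last guide changed by -7.10 in HAP1 and by -2.05 in HEK293FT.

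Gains were few, and their number depended on single libraries. Leaving out day 0 replicate 1 took the 116 risen sets to 38 and the 151 risen guides to 79. Leaving out day 14 replicate 2 took them to 226 and 417. With the replicate number as a block 68 sets and 81 guides rose. Scaling by total signal gave 224 risen and 484 fallen sets in place of 116 and 504. Among the classes 2.97% of abundant and 2.75% of common sets rose. In 104 of the 116 risen sets every guide lay at or above 0. In HEK293FT the median change of the risen sets was -0.02, and 50 of the 116 lay above 0. Over all targeting sets the HEK293FT median was -0.03, so the risen sets lay near that background.

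The set with the highest mean begins with gID_08089, the guide with the highest change, and belonged to the common class. Its first guide rose from 85.5 and 126 at day 0 to 685 and 522 at day 14. Its next guide went from 88.9 and 142 to 720.0 and 459, the one after that from 68.8 and 107 to 398 and 232, and the last from 72.1 and 64.5 to 133 and 183. In all 4 guides both day 14 libraries lay above both day 0 libraries. The set mean changed by 1.98 ± 0.14 (SE, n = 2 per day), for which limma gave an adjusted p of 9.67e-07, and gID_08089 alone by 2.53 ± 0.22 (SE, n = 2 per day), where the adjusted p was 7.37e-05. In HEK293FT the 4 guides changed by -0.55, -0.36, -0.40 and -0.22. The next highest sets lay at 1.30, 1.25, 1.21 and 1.09 in HAP1 and at -0.17, -0.55, -0.21 and -0.25 in HEK293FT. The sets at 1.25 and 1.21 belonged to the abundant class, where a single guide reached 2030 and 1994 at day 14 from 671 and 650.2 at day 0.

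Lost sets were neighbours more often than the share of lost sets would give. After a fallen targeting set the next set in number had fallen in 133 of 503 cases (26.4%), against 12.05% of all targeting sets. The share declined with distance, to 22.9% for the set after the next, 20.1% at 3 sets, 18.7% at 5 and 16.3% at 10. In stretches of 200 sets the share of fallen sets ran from 4.50% to 23.0%. The richest stretch, guide numbers 11201 to 12000, held 46 fallen among 200 sets, and 14 of its sets fell in HEK293FT, also the highest count of any stretch. Among its common sets alone 36 of 170 fell, a share of 21.2% that was the highest of any stretch. The share of abundant sets was 15.0% there and ran from 7.35% to 21.0% over the stretches. No rule for the order of the sets is given in the sources used here.

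Most lost sets stood alone, in 297 runs of a single set, but 1 run was far longer than the rest. Sets 2984 to 2998 of the 4177, all 15 in a row, fell in HAP1, where the next longest runs held 6. Their means ran from -5.72 to -0.49 with a median of -3.40, and 50 of their 60 guides lay below -1. The set of gID_11981 is among them. All 15 sets lie within guide numbers 11201 to 12000, the richest stretch above. They are counted in its 46 fallen sets, and their losses in HEK293FT in its 14. The run and the stretch are thus not separate observations. The abundant class held 3 of the 15, beside 505 of all 4175 targeting sets. In HEK293FT the same sets ran from -3.68 to -0.09 with a median of -0.97, and 7 of them fell. The day effect was lower in HAP1 than in HEK293FT for 10 of the 15 by limma. The sets were picked by their falls in HAP1, and that choice favours this direction. This run was singled out after its values were seen, and it is described without a test of its length.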

How the data were processed

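Guide signals of the 4 RfxCas13d HAP1 libraries were analysed, with the 4 HEK293FT libraries as a comparison. The deposited unit is signal: the authors deposited normalised values, and no label describes the normalisation, so depth, counting intervals and read-based tests could not be had. The submitters' processing notes name cutadapt 1.13 and Bowtie 1.1.2. Each table held 17708 rows. Rows without values were left out (1 in HAP1, 120 in HEK293FT) and the log2 values of 17 and 16 repeated guide names were averaged. No pseudocount was added. Libraries were scaled by the trimmed mean (30% off either end) of the log2 deviations of non-targeting guides. Day effects and their difference between lines were fitted with limma 3.58.1 under R 4.3.3 with trended empirical Bayes variances, over all guides or sets, and adjusted by Benjamini-Hochberg at 0.05. The fits were tested on simulated data in which each library varied independently. That test does not cover the correlation between same-numbered libraries given next. Deviations from the day mean were negatively correlated between day 0 and day 14 libraries of the same number (r = -0.44 across guides, which are not replicates), and no label states that a number marks the same infection on both days, so the fit has no block and the blocked counts are given beside the gains and the line differences. p-values measure only the spread between these libraries and assume that they are independent, which the unstated normalisation leaves unknown.

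The comparisons, sets and named guides were chosen with earlier results of these data known. The guides named are those with the lowest and highest change past the threshold and the first guide of the lowest and highest set. The tables pair no guide with a gene or a sequence, so genes and sequences are not given. Alternatives were other scalings, pseudocounts of 1 and 10, a minimum mean signal of 50, a replicate block, a robust prior, a minimum change, medians of sets, sets of table rows and each library left out. The A375 and HfCas13d tables were not used here.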

Additional observations from a re-analysis of the deposited data

Results flagged for a closer look

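In the limma fit over both lines the day effect was line-dependent for 341 sets lower and 94 sets higher in HAP1. These counts include 1 non-targeting set in each direction. The guides with the lowest and highest change and the lowest and highest set also differed between the lines by limma. The guide gID_04020 was lower in HAP1 by a log2 difference of -3.60 ± 0.59 (SE) and gID_08089 was higher by 3.07 ± 0.32 (SE). The set of gID_11981 differed by -2.69 ± 0.32 (SE) and the set of gID_08089 by 2.36 ± 0.21 (SE). These guides and sets were picked because they are the extremes of HAP1, and that choice favours the direction of the difference.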

How the results depend on the processing

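The counts of fallen guides and fallen sets stayed within 1.5 times their value under every alternative run except the crossed block and the minimum change. With a change of at least 1 log2 unit in either direction also required, 40 guides rose, 264 sets fell and 6 rose, and 77 abundant and 187 common sets fell. Counts of gains moved more. Risen sets numbered 224 with total signal scaling and 67 with set medians. With a replicate block 81 guides and 68 sets rose, and 27 sets had a higher day effect in HAP1 than in HEK293FT. When that block joined day 0 replicate 1 to day 14 replicate 2 and the reverse, an alternative chosen after seeing the data, 2005 guides fell and 1295 rose, 523 sets rose and 486 sets had a higher day effect in HAP1. The cause of these shifts was not tested. With each library left out in turn, fallen guides numbered 792 to 1404, risen guides 79 to 417, fallen sets 413 to 498 and risen sets 38 to 226. Fallen abundant sets numbered 132 to 146 and fallen common sets 271 to 363. Sets with a lower day effect in HAP1 than in HEK293FT numbered 215 to 364 and those with a higher one 26 to 164. A lone library of a day was assumed to vary like the others.

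Of the targeting guides 9.42% lay under the 1% point of the non-targeting distribution. It was 7.94% with a minimum mean signal of 50, which takes out 528 guides, and 20.7% among the 1551 targeting guides whose day 0 signal lay in the middle 80% of the non-targeting range. It ran from 8.41% to 10.8% with a library left out. Sets of table rows in place of guide numbers gave 505 fallen and 119 risen sets. Depth is unknown, so no floor could be set for signals near 1.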

Other observations

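The HAP1 table lists 17 guide names on a pair of rows each, between 1 and 7 rows apart, and in 7 cases inside the same set of 4. The paired rows were never equal. Within a library they differed by a median of 0.12 on the log2 scale, with a range of 0.0040 to 0.87, while the means of these guides differed between replicate libraries by a median of 0.12 at day 0 and 0.19 at day 14. The values within a library compare single rows, and those between libraries compare means of paired rows, so they are unlike measures.

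At day 0 the sets called in HAP1, fallen and risen alike, had slightly lower median signals relative to HEK293FT than uncalled sets of their class, with both tables scaled on non-targeting guides. In the abundant class the median day 0 difference, HAP1 less HEK293FT, was -0.10 for 146 fallen sets, -0.08 for 15 risen sets and -0.03 for 344 sets without a call. In the common class it was -0.36 for 357 fallen sets, -0.32 for 101 risen sets and -0.30 for 3211 sets without a call. These differences are small beside the spread, which ran from -0.35 at the 10% point to 0.07 at the 90% point of the fallen abundant sets. The HAP1 day 0 libraries enter both the call and this measure. The difference was not tested.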
